A study of Mus musculus with 2 samples.

Results

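The regions described here are intergenic DNase I peaks called in the thymus library labelled replicate 1 and in neither peak list of the library labelled replicate 2. A peak was taken when it lay over 1 kb from every GENCODE vM21 transcript start, had its midpoint outside all genes, and shared no base with any replicate 2 peak. By this rule 12227 of the 85367 peaks in the shorter replicate 1 list were members (14.3%; 95% Wilson interval 14.1 to 14.6%), which is 56.4% of the 21686 intergenic peaks of that list. The members were thus chosen by the peak calls of both libraries, so their presence in the library labelled replicate 1 and their absence from the other are no findings. They are called replicate-1-only peaks here. They were set beside 5857 intergenic peaks found in the same way only in the library labelled replicate 2 (9.66% of its 60644 peaks) and beside 9459 intergenic replicate 1 peaks that overlapped a replicate 2 peak, called shared peaks.

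DNase-seq maps chromatin that the nuclease DNase I can cut, which is where regulatory DNA is bound by proteins. Both libraries came from the thymus of 36-day-old males of the F1 hybrid strain B6CASTF1/J, and the labels name no treatment. The labels present the libraries as biological replicates, and both carry the same donor identifier, so whether they came from separate mice is not settled. They form 1 group, so there was no test over samples, and all intervals below cover the counting of peaks only. The files hold no read counts, and the depth of each library is unknown. Coordinates and reference bases are mm10, which is the sequence of C57BL/6J and not of the hybrid.

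Regulatory DNA far from transcript starts differs more between cell types than promoters do, so intergenic peaks carry much of the identity of the cells in a tissue. The thymus consists mostly of developing T cells, whose open chromatin is rich in the recognition letters of RUNX and ETS factors. Exocrine acinar cells of the pancreas, for which Cela2a (an elastase) and Cpa1 (carboxypeptidase A1) are markers, secrete digestive enzymes. They depend on the factor PTF1A, which acts with RBPJL at paired E-box and TTCCCA letters, and on the nuclear receptor NR5A2. The pancreas is not a part of the thymus, and no label names it.

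At the promoters of the marker genes the libraries differed. The Cela2a promoter, taken as 1 kb around its transcript starts, had a peak of signal 5.86 in the library labelled replicate 1 and no peak in the library labelled replicate 2. For Cpa1 the promoter signal was 4.22 in the library labelled replicate 1, with no peak in the library labelled replicate 2. Over all 21938 protein-coding genes 63.1% had a promoter peak in the library labelled replicate 1, against 60.1% in the library labelled replicate 2. Of 42 annotated acinar secretory genes 33 had a promoter peak in the library labelled replicate 1, against 2 in the library labelled replicate 2. T cell receptor and coreceptor genes had one at 4 of 19 in the library labelled replicate 1, against 18 of 19 in the library labelled replicate 2. Cd8a, a coreceptor of T cells, lacked a promoter peak in the library labelled replicate 1, against one of 10.1 in the library labelled replicate 2. All 13 acinar regulator genes had a promoter peak in the library labelled replicate 1, and 10 of them did in the library labelled replicate 2. Ptf1a stood at 6.95 in the library labelled replicate 1 and had no peak in the library labelled replicate 2, and Rbpjl stood at 6.29 in the library labelled replicate 1 against 2.97 in the library labelled replicate 2. T lineage factor genes had a promoter peak at 15 of 18 in the library labelled replicate 1, against 18 of 18 in the library labelled replicate 2, and thymocyte development genes at 7 of 15 in the library labelled replicate 1, against 14 of 15 in the library labelled replicate 2. Tcf7 had a peak of 2.58 in the library labelled replicate 1 against 6.72 in the library labelled replicate 2, while Bcl11b had none in the library labelled replicate 1 against 9.04 in the library labelled replicate 2. The thymus label of the library labelled replicate 1 thus stands beside missing peaks at most receptor and coreceptor promoters, peaks at most T lineage factor promoters, and peaks at most pancreatic enzyme promoters. These promoter peaks did not choose the intergenic peaks, but they come from the same libraries, and their part in the results below was not tested. In a bulk tissue, more cells of a type and more open chromatin per cell cannot be told apart.

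The sequences shown here are examples of the peaks counted below. They are the strongest replicate-1-only peak at Cpa1 and at each of 3 further genes of the acinar lists, the strongest of all, and the strongest with an NR5A, HNF1 or HNF4 match inside a footprint. Gata6 (8.63) and Cela3b (5.24) had stronger peaks than Pnliprp2 (4.51) and Nr5a2 (4.40) and are not shown. In its footprints the Cela3b peak held the E-box CAGCTG and the letters CCACCC, and no TTCCCA. They are read from the plus strand of the RefSeq copy of the mm10 assembly, and capitals mark the bases within footprints of the library labelled replicate 1, short stretches protected from the nuclease.
Cpa1 chr6:30646021-30646240: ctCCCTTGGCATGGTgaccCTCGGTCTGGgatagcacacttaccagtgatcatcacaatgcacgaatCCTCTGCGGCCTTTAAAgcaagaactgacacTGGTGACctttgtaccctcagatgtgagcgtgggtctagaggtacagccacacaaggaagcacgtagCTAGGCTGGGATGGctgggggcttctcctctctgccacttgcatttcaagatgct
Clps chr17:28561781-28562020: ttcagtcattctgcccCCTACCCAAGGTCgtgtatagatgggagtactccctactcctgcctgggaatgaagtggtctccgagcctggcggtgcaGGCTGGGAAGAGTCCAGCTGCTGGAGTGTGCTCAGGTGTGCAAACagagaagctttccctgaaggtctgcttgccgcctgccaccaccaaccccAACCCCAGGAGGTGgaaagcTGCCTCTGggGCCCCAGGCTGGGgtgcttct
Pnliprp2 chr19:58752621-58752880: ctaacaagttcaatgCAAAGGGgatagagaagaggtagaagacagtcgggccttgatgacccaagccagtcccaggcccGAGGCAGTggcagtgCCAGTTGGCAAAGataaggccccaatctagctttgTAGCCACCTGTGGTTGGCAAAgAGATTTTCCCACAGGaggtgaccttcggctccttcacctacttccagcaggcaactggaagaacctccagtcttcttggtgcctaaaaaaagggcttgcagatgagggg
Nr5a2 chr1:137061081-137061280: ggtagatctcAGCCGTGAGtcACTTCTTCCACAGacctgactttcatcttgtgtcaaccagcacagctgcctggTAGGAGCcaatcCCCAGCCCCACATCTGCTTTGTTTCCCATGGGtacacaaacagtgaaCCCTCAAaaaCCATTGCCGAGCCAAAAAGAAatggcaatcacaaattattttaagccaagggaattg
Larp1 chr11:57988661-57988860: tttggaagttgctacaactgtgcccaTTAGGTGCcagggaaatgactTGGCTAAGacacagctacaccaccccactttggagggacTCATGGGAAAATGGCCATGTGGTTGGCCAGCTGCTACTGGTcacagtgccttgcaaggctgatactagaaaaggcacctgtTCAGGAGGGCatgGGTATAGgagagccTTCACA
Cish, NR5A match chr9:107308021-107308200: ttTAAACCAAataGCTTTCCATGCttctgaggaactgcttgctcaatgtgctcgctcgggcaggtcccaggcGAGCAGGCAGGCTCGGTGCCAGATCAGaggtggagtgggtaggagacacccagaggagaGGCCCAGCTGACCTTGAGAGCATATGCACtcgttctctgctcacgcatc
Cebpa, HNF1 match chr7:35143941-35144180: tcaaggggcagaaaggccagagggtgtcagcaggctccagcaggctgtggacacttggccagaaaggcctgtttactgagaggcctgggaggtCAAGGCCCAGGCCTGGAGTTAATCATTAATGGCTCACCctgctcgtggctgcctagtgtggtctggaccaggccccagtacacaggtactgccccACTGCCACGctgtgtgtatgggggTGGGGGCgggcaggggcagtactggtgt
Cacna1a, HNF4 match chr8:84334461-84334640: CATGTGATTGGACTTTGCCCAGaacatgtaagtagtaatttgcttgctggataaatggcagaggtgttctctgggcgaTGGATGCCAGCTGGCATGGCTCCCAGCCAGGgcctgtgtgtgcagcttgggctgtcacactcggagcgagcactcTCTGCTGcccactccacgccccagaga
The Clps peak, 1135 bp from the colipase gene, held the E-box CAGCTG, the E-box CAGGTG and the letters TGGGAA inside its footprints. The Larp1 peak, the strongest of all members, likewise held the E-box CAGCTG, the letters TGGGAA and the RUNX letters TGTGGTT in its footprints. The Pnliprp2 peak held the E-box CAGGTG on the minus strand, the letters TTCCCA and the letters TGTGGTT in footprints. The Cpa1 peak had 5 footprints covering 61 of 220 bases and none of the 35 motifs searched within them. These matches describe the letters and are not evidence of binding.

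Replicate-1-only peaks were weaker than shared ones. Their signal, the deposited peak height in a unit whose scaling is not stated, had a median of 0.800 and ran from 0.0706 to 9.96. The replicate-2-only peaks had a median of 1.02 in their own library, whose scale may differ, and the shared peaks had a median of 1.59 and reached 67.7. The list holds overlapping peaks, and 403 members (3.30%) shared bases with another member, 110 of them lying wholly inside it, so that 12227 members made 12019 separate regions. The counts per gene below are of listed peaks. The median width was 199 bp in replicate-1-only peaks, 184 bp in replicate-2-only peaks and 180 bp in shared peaks. Around the 1 kb limit of the rule, the 100 members up to 100 bp beyond it had a median signal of 0.858, beside 0.890 in the 122 peaks up to 100 bp inside it that met the other criteria. The 226 members within 100 bp of a replicate 2 peak had a median signal of 0.874, beside 0.713 in the 153 peaks left out for an overlap of 1 to 50 bp.

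The deposited lists of the library labelled replicate 2 are described at these places without a finding, since the rule left out every peak that library had. An interval under the deposited false discovery rate (FDR) ceiling of 0.05 lay in 403 of the 12227 replicate-1-only peaks (3.30%; 2.99 to 3.63%) and one under 0.001 in 142. A replicate 2 footprint lay in 50 of them (0.409%), while a replicate 1 footprint lay in 9477 (77.5%; 76.8 to 78.2%). The share with a footprint of the own library was 85.0% in replicate-2-only peaks and 94.2% in shared peaks. In 5 equal classes of members by rising signal it was 47.1%, 70.9%, 80.8%, 90.5% and 98.3%. The nearest replicate 2 peak was a median of 9654 bp away, and 1699 members (13.9%) had one within 1 kb.

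Replicate-1-only peaks lay far from genes. The midpoint was a median of 27121 bp from the nearest protein-coding gene, against 21903 bp for replicate-2-only peaks and 13576 bp for shared peaks. Beyond 100 kb lay 21.4% of members (20.7 to 22.1%), against 14.9% of replicate-2-only and 9.41% of shared peaks. The strongest members were the nearest to genes, with a median distance of 63280 bp in the weakest of the 5 signal classes and 16930 bp in the strongest.

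**Figure D1:**
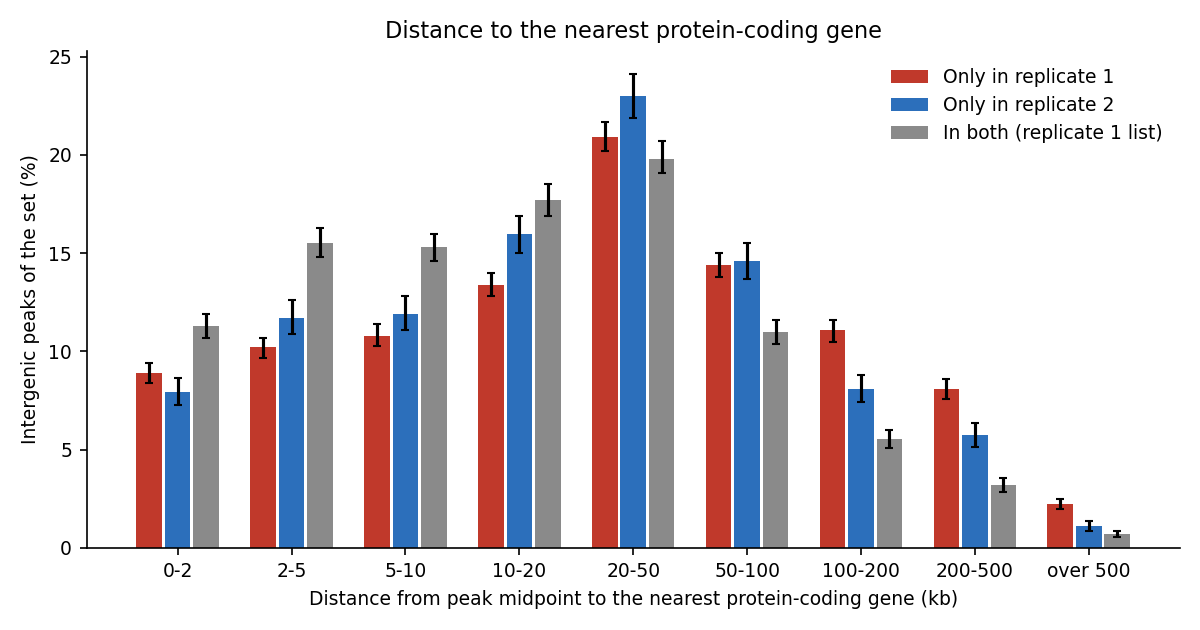
Share of each set of intergenic peaks (y axis, %) by distance from the peak midpoint to the nearest protein-coding gene (x axis, kb), for peaks only in replicate 1, only in replicate 2 and in both. Error bars are 95% Wilson intervals, and replicate-1-only peaks had the highest share in each class over 100 kb, for example 11.1% between 100 and 200 kb.

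The genes nearest to these peaks included many that encode the enzymes of pancreatic acinar cells. At least 1 replicate-1-only peak was nearest to 4993 of 21938 protein-coding genes (22.8%), and to 24 of the 42 annotated acinar secretory genes (57.1%). A share above 22.8% was not particular to acinar genes, and most of the other lists had one. It was 68.8% for pancreatic duct, 66.7% for endothelial and 64.3% for endoderm factor genes. Lists below 22.8% were T cell receptor and coreceptor (15.8%), myeloid and dendritic cell (21.4%) and skeletal muscle genes (8.33%). Replicate-2-only peaks were nearest to 12.7% of all protein-coding genes and to 2 of the 42 acinar secretory genes. Shared peaks were nearest to 25.2% of all protein-coding genes and to 5 of the 42. The 24 genes had 123 replicate-1-only peaks, or 40.7 per Mb of the intergenic sequence nearest to the list, against 8.35 per Mb over all protein-coding genes. In the same sequence lay 4 replicate-2-only peaks (1.32 per Mb) and 7 shared peaks (2.32 per Mb). The 123 peaks had a median signal of 1.51, against 0.800 over all members, and a median distance of 2598 bp, against 27121 bp. The distance is bounded by the intergenic sequence nearest to each gene, which ran from 0.00200 Mb at Cel and 0.00700 Mb at Cpa1 to 1.25 Mb at Amy2a5. The shorter distance can therefore not be read apart from the spacing of these genes.

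Among elastases, Cela3b had 11 replicate-1-only peaks with signals of 0.753 to 5.24, all within 4041 bp of the gene, and Cela3a had 8 with signals up to 4.04. Cela1 had 2, of signal 1.31 and 2.58. Cela2a had none, and no point on a 1 kb grid of intergenic sequence was nearest to it. Among carboxypeptidases, Cpa1 had 8 peaks, with signals of 1.52 and 1.41 on the upstream side and 4.02, 5.62, 2.40, 2.08, 1.54 and 0.909 past its 3′ end. All 8 held a replicate 1 footprint, and no replicate-2-only or shared peak was nearest to Cpa1. That absence is the usual case, since 12.7% of all protein-coding genes had a replicate-2-only and 25.2% a shared intergenic peak. The intergenic sequence nearest to Cpa1 spans 0.00700 Mb. Cpb1 had 3 peaks.

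The lipase genes lie together on chromosome 19. Pnlip, pancreatic lipase, had 14 (signal 0.564 to 3.65), Pnliprp1 had 10 (0.847 to 3.69) and Pnliprp2 had 8 (0.510 to 4.51). None had a replicate-2-only or shared intergenic peak, as is usual over all protein-coding genes. Clps, whose product colipase is the cofactor of pancreatic lipase, had 6, of signal 1.27, 1.00, 1.65, 1.91, 7.80 and 1.51, or 5 once overlapping peaks were merged. Cel, bile salt-activated lipase, had 3, or 2 when merged, all within 1234 bp. Among serine protease genes, Ctrb1 (chymotrypsinogen) had 3 with signals of 2.86, 4.11 and 1.36, and Prss2 (trypsinogen) had 7, with 2 replicate-2-only peaks also nearest to it. Amy2a5, an amylase gene, had 9, and Rnase1, pancreatic ribonuclease, had 6. Trypsinogen and amylase genes have near-identical copies, so how reads were placed there could change which of them had a peak. The other listed genes with a member were Try4, Try5, Try10, Gp2, Zg16, Reg1, Reg3b, Reg3g and Tff2, with 1 to 3 peaks each. Merging overlapping peaks left 117 of the 123 peaks of the list. Gp2 had a single weak peak of signal 0.290 at 86076 bp.

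**Figure D2:**
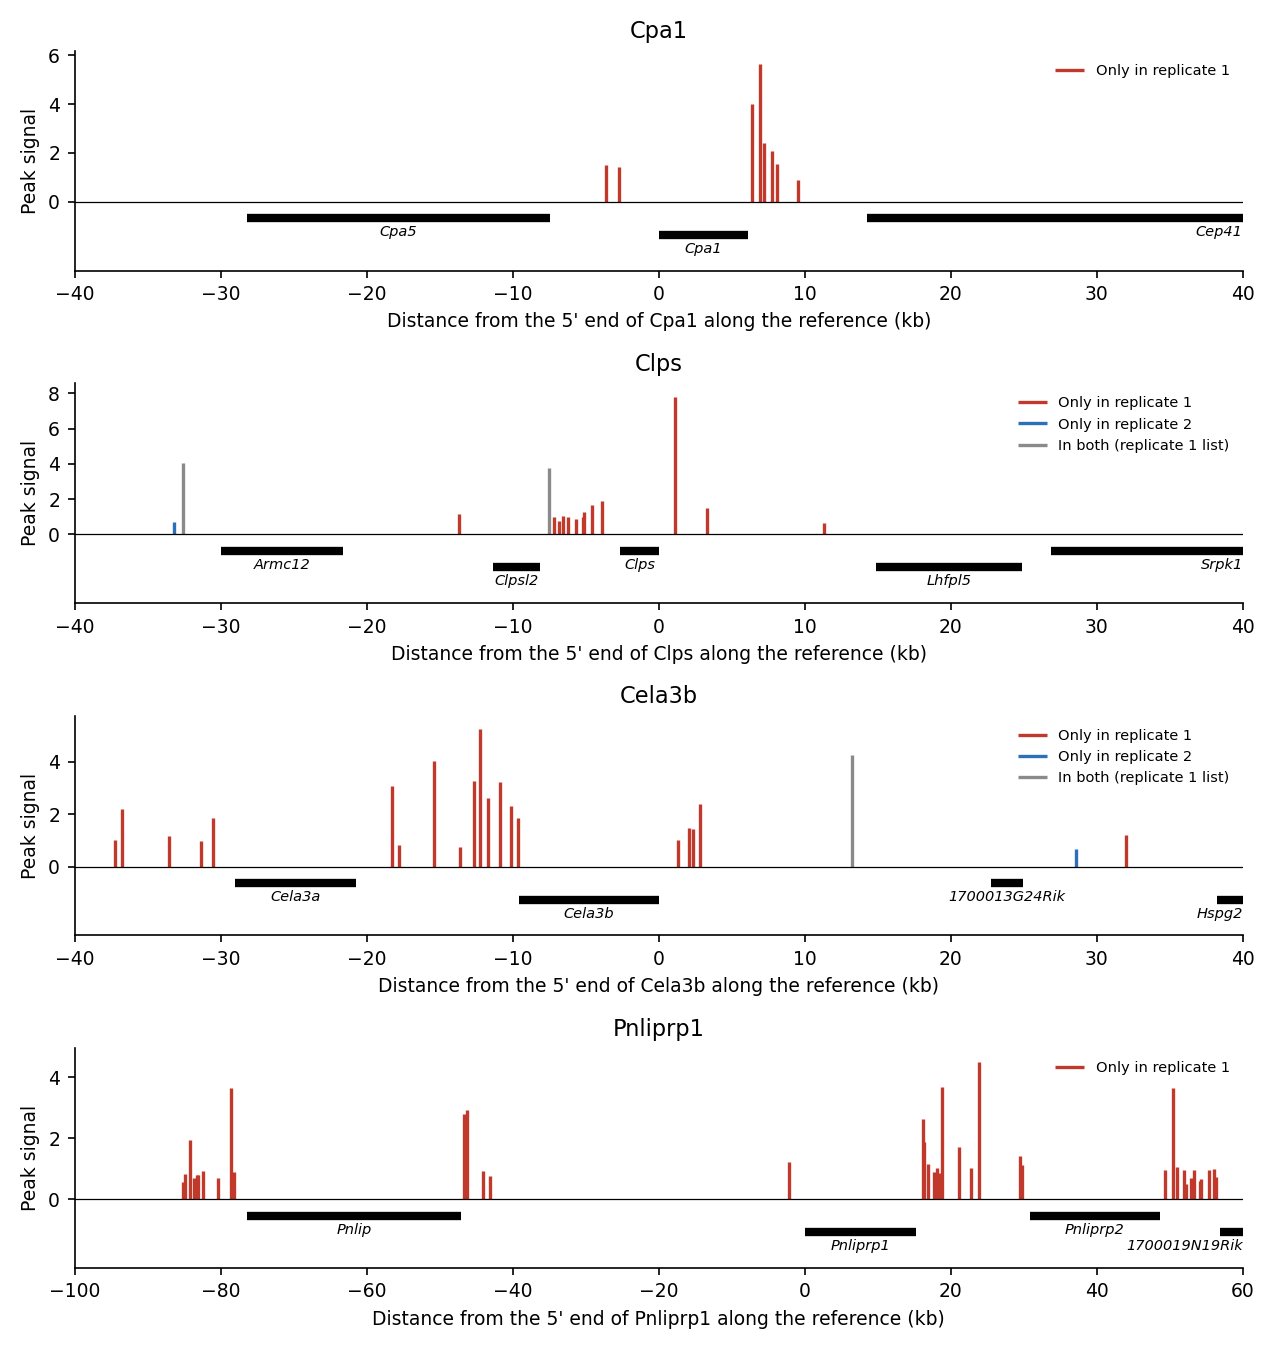
Intergenic peaks around 4 acinar secretory genes: the x axis is the distance from the 5′ end of the named gene along the reference (kb), the y axis is the deposited peak signal, each stem is 1 peak coloured by set, and black bars are protein-coding genes. Around Cpa1 and Pnliprp1 all intergenic peaks in the windows (8 and 39) were only in replicate 1, and promoter and genic peaks are not drawn.

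Genes for acinar transcription factors had replicate-1-only peaks as well, mostly farther away. Of 13 listed regulators 10 were nearest to at least 1 (76.9%, against 22.8% of all protein-coding genes), with 87 peaks at a median distance of 30994 bp. Their density was 58.4 per Mb, against 8.35 per Mb over all genes, and 83 of the 87 were left after merging. Replicate-2-only peaks were nearest to 4 of the 13, with 8 peaks, and shared peaks to 8 of the 13, with 19. Nr5a2, the nuclear receptor of acinar identity, had 17 with signals of 0.298 to 4.40, and 5 replicate-2-only peaks were nearest to it too. Ptf1a had 3 of signal 2.45, 0.753 and 0.745 within 2170 bp, and Rbpjl had 2 of signal 0.972 and 1.54. The GATA factor gene Gata6 had 12 with a highest signal of 8.63, and Gata4 had 3 of signal 3.61, 1.58 and 2.43. Xbp1, a factor of the secretory stress response, had 13 and Creb3l1 had 7. Hes1 with 16 and Foxp4 with 13 serve in many tissues, and Mnx1 had 1.

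Lists for other cells of the pancreas and for endoderm were less even. Pancreatic duct genes were nearest to a member in 11 of 16 cases (68.8%), with 52 peaks (21.9 per Mb), led by Onecut1 with 14 and Sox9 with 12. Endoderm factor genes were nearest to a member in 9 of 14 cases (64.3%), with 56 peaks (29.9 per Mb), led by Foxa2 with 14 and Foxa1 with 10. Islet genes had 17 peaks at 8 of 24 genes. That share of genes, 33.3%, is above the 22.8% over all genes, while the density of 4.16 per Mb is under the 8.35 per Mb over all genes. Ins1, an insulin gene, had 2 weak peaks of signal 0.243 and 0.196, and the nearest lay 185070 bp away.

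T cell genes had replicate-1-only peaks at a lower density than the 8.35 per Mb over all genes, though not at fewer of the genes in every list. T cell receptor and coreceptor genes had 3 replicate-1-only peaks at 3 of 19 genes (15.8%; 3.30 per Mb), against 54 replicate-2-only peaks at 10 of the 19 (59.4 per Mb). The 3 lay at Cd3g, Cd28 and Thy1, with signals of 1.75, 0.627 and 0.376. T lineage factor genes had 15 replicate-1-only peaks at 8 of 18 genes (44.4%; 3.71 per Mb), against 107 replicate-2-only peaks at 14 of the 18 (26.5 per Mb). Thymocyte development genes had 6 replicate-1-only peaks at 6 of 15 genes (4.42 per Mb), against 13 replicate-2-only peaks at 7 of the 15 (9.57 per Mb). For the last 2 lists the share of genes lay above the 22.8% over all genes. Shared peaks, which the library labelled replicate 1 also has, were nearest to genes of all 3 lists. There were 11 at 7 of 19 receptor and coreceptor genes (12.1 per Mb). T lineage factor genes had 22 at 11 of 18 (5.44 per Mb), and thymocyte development genes had 17 at 6 of 15. Over all genes shared peaks stood at 6.46 per Mb. The receptor and thymocyte development lists lay above that density and the T lineage factor list below it. Lef1 had 2 replicate-1-only and 23 replicate-2-only peaks, and Ets1 had 2 replicate-1-only and 12 replicate-2-only peaks. Of all genes with a replicate-1-only peak, 1338 of 4993 (26.8%) also had a replicate-2-only peak, which is 47.9% of the 2791 genes with such a peak.

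**Figure D3:**
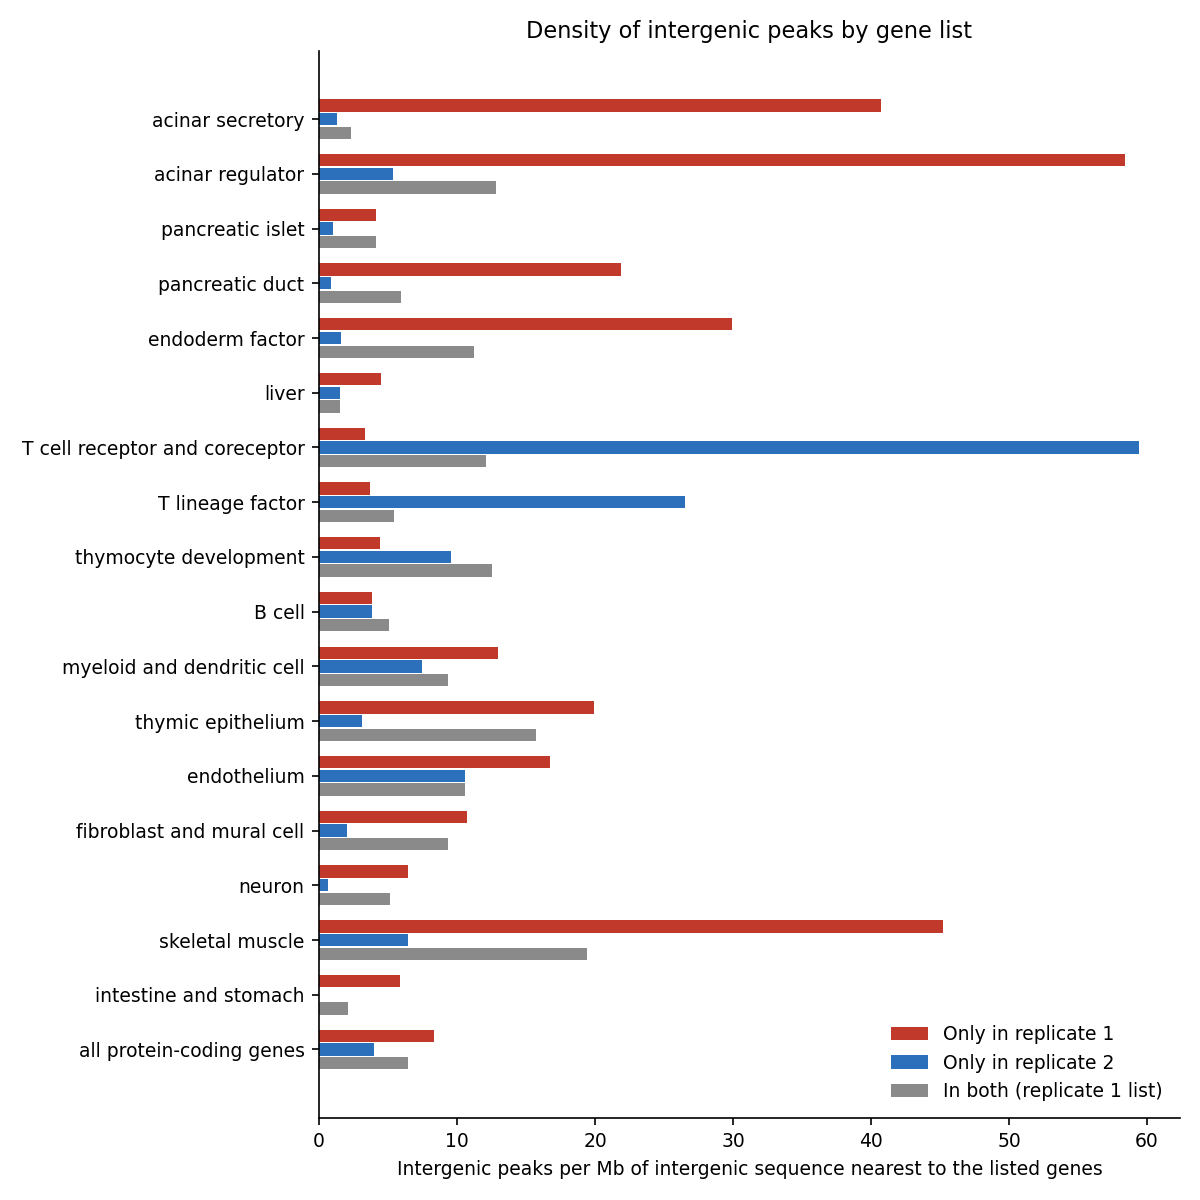
Intergenic peaks per Mb of the intergenic sequence nearest to the genes of each list (x axis), by list (y axis) and by set of peaks. The acinar secretory and acinar regulator lists had 40.7 and 58.4 replicate-1-only peaks per Mb, the T cell receptor and coreceptor list had 3.30, and the skeletal muscle value of 45.2 rests on 7 peaks at 1 gene in 0.155 Mb.

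The genes with the most replicate-1-only peaks were outside the acinar lists. Nfe2l3, a basic leucine zipper factor gene, had 30, at 92428 to 312809 bp, with signals of 0.706 to 3.79. Meis1, a homeodomain factor gene, had 27, Tent5c, a poly(A) polymerase gene, had 26, and the corepressor gene Bcor had 25. They were followed by the nuclear receptor gene Nr2f2 with 23, Cited2 and Zfp608 with 22 each, Larp1 with 21, Marcks and Pik3r1 with 20 each, Rybp, Pim3 and Enc1 with 19 each, and Vegfa and Fut8 with 18 each. Ties were ordered by summed signal, and other genes with 18, such as Chd7 and Sox11, fell outside the 15 named. Nr2f2, Meis1, Tent5c, Cited2, Larp1 and Pim3 had 0 replicate-2-only peaks, while Bcor had 12. Intergenic sequence nearest to a gene differs in length, with 0.0290 Mb at Pim3 and 1.09 Mb at Cited2. Of the 4993 genes with a member, 2536 (50.8%) had 1 and 99 had over 10, and 79.3% of members shared their gene with another member. Merged, Nfe2l3 had 28, Meis1 had 25 and Pim3 had 15.

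The strongest member, of signal 9.96, lay 20303 bp from Larp1, which encodes a protein binding messenger RNA. It was followed by peaks of 9.77 near Tmem220, 9.43 near the deubiquitinase gene Usp36, 9.02 near the kinase gene Pim3, 8.98 near Mex3c, 8.95 near Sepsecs, 8.91 near Extl1, 8.90 near the mitochondrial carrier gene Slc25a10, 8.79 near the apoptosis gene Bmf and 8.76 near Atp5mpl. These 10 had 3 to 6 footprints each in the library labelled replicate 1.

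Replicate-1-only peaks were often grouped. Chained wherever neighbouring edges lay close, with 12493 bp as the widest gap joined and 12504 bp as the narrowest not joined, 57.7% (56.8 to 58.6%) lay in groups of 2 or more, against 54.9% (53.7 to 56.2%) of replicate-2-only and 43.7% (42.7 to 44.7%) of shared peaks. With overlapping peaks merged first, the shares were 56.6% of replicate-1-only, 54.0% of replicate-2-only and 43.1% of shared regions. In groups of 5 or more lay 15.8%, against 12.3% of replicate-2-only and 5.30% of shared peaks. Each set was chained with itself, and the sets held 12227 replicate-1-only, 5857 replicate-2-only and 9459 shared peaks. A larger set has more neighbours within a fixed gap, so these shares cannot be separated from set size. The largest replicate-2-only group held 46 peaks and the largest shared group 13. The group with the most members held 31 over 58.8 kb at chr15:88829381-88888202, near Pim3, Creld2 and Ttll8, and its signals ran from 0.423 to 9.02. The next held 23 near Btg2 and Fmod, 22 near B4galnt1 and Os9, 19 near Cela3b and Cela3a, and 15 near Nfe2l3. The 40.3 kb around Cela3b and Cela3a held no shared and no replicate-2-only intergenic peak, while the Btg2 group held 11 shared and 2 replicate-2-only peaks. Over all genes such peaks stood at 6.46 and 4.00 per Mb of intergenic sequence, so a short stretch without one is not unusual.

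The reference sequence took no part in choosing the peaks and was read in windows of 200 bp at the midpoints, on both strands, for 35 motifs. The RBPJ letters TTCCCA and the IKZF letters TGGGAA are the same site read on opposite strands, so there were 34 distinct motifs. For 16 of the 35 the interval in replicate-1-only peaks lay wholly above that in replicate-2-only peaks, and for 7 it lay wholly below. Against 24454 windows lying 2 kb to either side of the members, 21 lay wholly above and 4 wholly below. The median GC content was 49.5% in replicate-1-only windows, 52.5% in replicate-2-only windows, 51.0% in shared windows and 45.0% in the flanks, and its part in the motif shares was not tested.

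Letters of nuclear receptors and endoderm factors were more frequent in replicate-1-only peaks. The NR5A letters CAAGGTCA stood in 436 of them (3.57%; 3.25 to 3.91%), against 1.31% (1.05 to 1.64%) of replicate-2-only peaks, 1.09% of shared peaks and 1.46% of the flanks. The same letters read backwards, as a control, stood in 0.908% of replicate-1-only and 0.529% of replicate-2-only peaks. HNF4 letters, CAAAGTCCA, stood in 0.662% (0.533 to 0.823%) of replicate-1-only peaks against 0.222% (0.130 to 0.379%) of replicate-2-only peaks. Backwards they stood in 0.245% of replicate-1-only and 0.120% of replicate-2-only peaks. The HNF1 consensus, the letters GTTAAT followed by a free base and then ATTAA, stood in 23 replicate-1-only peaks (0.188%) and in 0 of 5857 replicate-2-only peaks, which allows a share of up to 0.0512% (3 of 5857 peaks). Against that limit the share was at least 3.67-fold higher. GRHL letters, AACCGGTT, stood in 0.245% of replicate-1-only and 0.0683% of replicate-2-only peaks, but backwards in 0.450% of replicate-1-only and 0.273% of replicate-2-only peaks. The NFI palindrome of TTGGC stood in 19 replicate-1-only peaks (0.155%) and in 2 replicate-2-only peaks (0.0341%).

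The CTCF consensus stood in 0.286% of replicate-1-only peaks against 0.0683% of replicate-2-only peaks, and in 1.77% (1.52 to 2.05%) of shared peaks. In the stronger 50% of peaks the log2 ratio of replicate-1-only over replicate-2-only shares was 0.23, against 2.07 over all of them. CTCF holds chromatin loops in most cell types. Forkhead letters TGTTTAC stood in 5.23% of replicate-1-only and 2.48% of replicate-2-only peaks, and backwards in 4.18% of replicate-1-only and 2.85% of replicate-2-only peaks. GATA letters AGATAA stood in 13.2% of replicate-1-only and 7.60% of replicate-2-only peaks, and backwards in 7.79% of replicate-1-only and 4.97% of replicate-2-only peaks. Homeodomain letters TAATTA stood in 3.77% of replicate-1-only and 1.47% of replicate-2-only peaks. Their reversed letters, of the same composition, differed as much, with 4.03% of replicate-1-only and 1.01% of replicate-2-only peaks. In the flanks the shares were 2.96% for forkhead, 11.3% for GATA and 5.64% for homeodomain letters. The homeodomain share of replicate-1-only peaks was thus above that of replicate-2-only peaks but under that of the flanks.

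The RUNX and ETS letters stood near the level of the flanks. RUNX letters TGTGGTT stood in 4.59% (4.23 to 4.97%) of replicate-1-only peaks, against 11.7% (10.9 to 12.6%) of replicate-2-only peaks, 4.69% of shared peaks and 5.01% of the flanks. Read backwards they stood in 2.75% of replicate-1-only and 2.66% of replicate-2-only peaks. The ETS core AGGAAG stood in 23.5% (22.7 to 24.2%) of replicate-1-only peaks, against 44.7% (43.5 to 46.0%) of replicate-2-only peaks, 24.8% of shared peaks and 23.3% of the flanks. The longer ETS letters ACCGGAAG stood in 0.254% of replicate-1-only peaks, against 1.43% of replicate-2-only peaks and 0.225% of the flanks. CRE letters TGACGTCA stood in 0.221% of replicate-1-only and 0.427% of replicate-2-only peaks, and backwards in 0.483% and 0.683%. KLF/SP letters GGGCGG stood in 5.77% of replicate-1-only peaks, against 9.99% of replicate-2-only peaks and 3.21% of the flanks. The reversed KLF/SP letters, of the same composition, differed nearly as much, with 5.71% of replicate-1-only and 9.27% of replicate-2-only peaks. The NRF1 consensus, GCGCA followed by its reverse complement, stood in 0.0327% of replicate-1-only and 0.171% of replicate-2-only peaks.

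The E-box CAGCTG had overlapping intervals in the unshared sets. It stood in 22.0% (21.3 to 22.7%) of replicate-1-only peaks and 22.5% (21.4 to 23.6%) of replicate-2-only peaks, and both exceeded the 14.9% of shared peaks and the 9.12% of the flanks. CAGGTG stood in 24.9% of replicate-1-only and 28.1% of replicate-2-only peaks, and CATATG in 4.27% of replicate-1-only and 2.41% of replicate-2-only peaks. The flanks held CAGGTG in 13.8% and CATATG in 5.50%, so that CATATG was less frequent in replicate-1-only peaks than beside them. RBPJ letters stood in 25.4% (24.6 to 26.2%) of replicate-1-only and 16.8% (15.8 to 17.8%) of replicate-2-only peaks, against 18.3% of the flanks, and backwards in 8.79% of replicate-1-only and 9.54% of replicate-2-only peaks. The bipartite PTF1 consensus, the letters CACCTG with the letters TTTCCCA behind them, stood in 9 replicate-1-only, 0 replicate-2-only and 2 shared peaks.

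**Figure D4:**
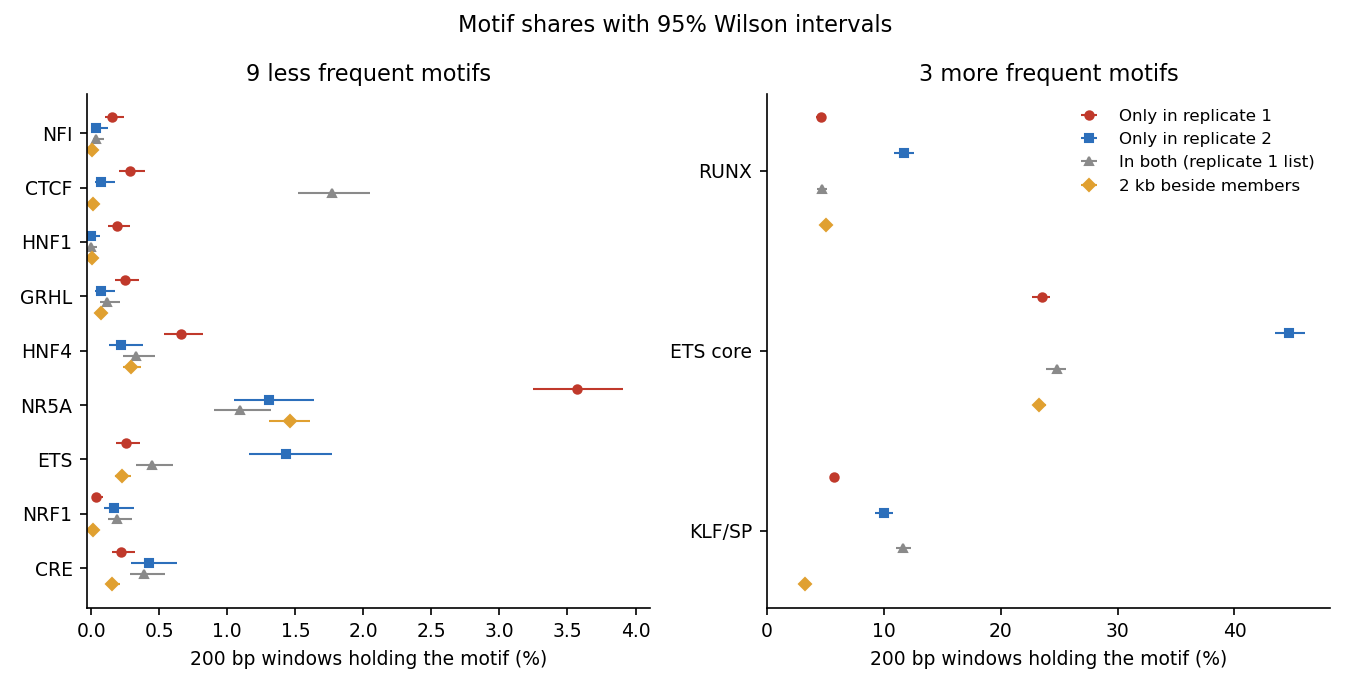
Share of windows of 200 bp that hold each of 12 motifs (x axis, %), for peaks only in replicate 1, only in replicate 2 and in both and for windows 2 kb beside the replicate-1-only peaks, with 95% Wilson intervals as bars. NR5A stood at 3.57% in replicate-1-only peaks against 1.31% in replicate-2-only peaks, and RUNX at 4.59% in replicate-1-only peaks against 11.7% in replicate-2-only peaks.

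Where in the peak the letters lay differed between the sets as well. In replicate-1-only peaks NR5A letters averaged 1.13% per 50 bp bin in the central pair of bins and 0.381% in the 20 bins beyond 500 bp, while in replicate-2-only peaks the values were 0.307% and 0.435%. The E-box CAGCTG was central in both, at 7.59% against 2.48% outside in replicate-1-only peaks and 7.01% against 2.77% outside in replicate-2-only peaks. RUNX letters were level across replicate-1-only peaks, at 1.25% in the centre and 1.28% outside, and central in replicate-2-only peaks, at 3.73% and 1.41%. The ETS core followed the same pattern, with 6.67% and 6.88% in replicate-1-only peaks and 15.7% and 7.37% in replicate-2-only peaks.

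**Figure D5:**
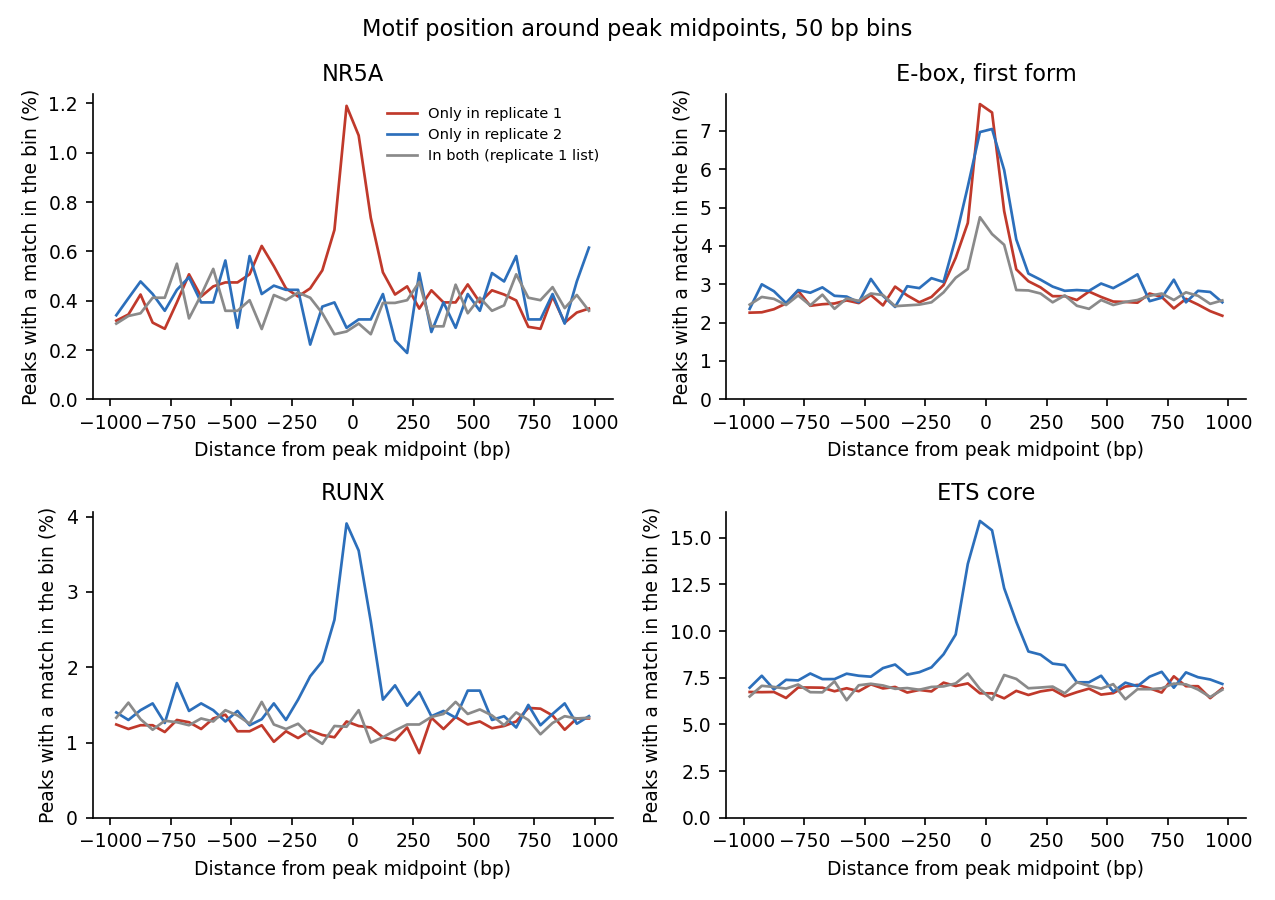
Share of peaks with a motif match in each 50 bp bin (y axis, %) by distance from the peak midpoint (x axis, bp), for NR5A, the E-box CAGCTG (first form), RUNX and the ETS core. The replicate-1-only line has a central rise for NR5A (1.13% in the central bins) and the E-box (7.59%) and none for RUNX (1.25%) or the ETS core (6.67%).

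Footprints marked some of these letters more often than others. Footprints covered 11.9% of the bases of replicate-1-only peaks and 13.5% of those of replicate-2-only peaks, each in its own library. Of 463 NR5A matches in replicate-1-only peaks 154 lay in a footprint (33.3%; 29.1 to 37.7%), against 9 of 78 (11.5%; 6.19 to 20.5%) in replicate-2-only peaks. Of 3252 E-box CAGCTG matches in replicate-1-only peaks 1205 did so (37.1%; 35.4 to 38.7%), against 329 of 1604 (20.5%; 18.6 to 22.6%) in replicate-2-only peaks. For RBPJ letters the shares were 19.8% (18.5 to 21.1%) in replicate-1-only and 12.8% (10.9 to 14.9%) in replicate-2-only peaks. RUNX matches went the other way, at 10.4% (8.22 to 13.0%) in replicate-1-only and 23.8% (20.9 to 27.0%) in replicate-2-only peaks, and so did the ETS core, at 8.11% (7.28 to 9.04%) in replicate-1-only and 12.2% (11.2 to 13.3%) in replicate-2-only peaks. KLF/SP matches also went that way, at 33.3% (30.2 to 36.4%) in replicate-1-only and 47.5% (43.9 to 51.2%) in replicate-2-only peaks. In replicate-1-only peaks CTCF had 21 of 32 matches in a footprint (65.6%) and NFI 17 of 22 (77.3%). Of 688 forkhead matches in replicate-1-only peaks 3.92% lay in a footprint, which is under the 11.9% of bases that footprints cover. GATA matches (9.36%) and homeodomain matches (7.17%) were under it too. In footprints lay 16 of 100 HNF4 matches (16.0%; 10.1 to 24.4%) and 6 of 36 HNF1 matches (16.7%; 7.87 to 31.9%). Both intervals hold the 11.9%, so the HNF1 and HNF4 sequences shown, picked for a match in a footprint, are not typical. In replicate-2-only peaks 4 of 13 HNF4 matches lay in a footprint. The E-box CAGCTG thus stood in about the same share of peaks in both unshared intergenic sets and had a different share of its matches in footprints.

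The NR5A letters were also counted in the peaks nearest to acinar genes, where the interval overlapped that of all members. Of the 210 members nearest to a gene of the 2 acinar lists, 2 held them (0.952%; 0.262 to 3.41%), against 3.57% of all members, and 34 held the E-box CAGCTG (16.2%; 11.8 to 21.8%), against 22.0%. RBPJ letters stood in 29.5% (23.8 to 36.0%) of the 210, against 25.4% of all members. The bipartite PTF1 consensus stood in 0 of the 210 (0 to 1.80%), against 0.0736% of all members. Among all members the NR5A share was 3.03% in the weakest of the 5 signal classes and 4.70% in the strongest, with intervals of 2.42 to 3.78% and 3.93 to 5.61%.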

How the data were processed

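DNase-seq was deposited for 2 libraries of thymus. Per the labels reads were placed on mm10. The sources used here name no aligner, peak caller or footprint caller, and give no thresholds or scaling of the signal. The authors' deposited peak lists give a signal per peak (shorter lists 85367 and 60644 peaks, longer lists 126824 and 88164, for replicate 1 and 2). The deposited FDR tables give a p-value-like FDR per interval under 0.05. The deposited footprint lists give a constant score and were used for positions. Each file is from 1 library, and depth is unknown.

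Promoter distance and gene bodies came from GENCODE vM21 (GRCm38), with nearest genes among 21938 protein-coding genes on the main chromosomes by distance to the gene body. Motifs were matched exactly on both strands. Other letters searched were TTGCNNAA (CEBP), TGANTCA (AP-1), ATCGAT (ONECUT), ACATTCC (TEAD), ACAATG (SOX), CCACCC (KLF), CTTTGAT (TCF/LEF), AACNGTT (MYB), TGACGTG (XBP1) and CCAAT (NFY), with MEF2, NFKB, IRF and GRE by name. Density used intergenic points on a 1 kb grid. The 17 lists hold 278 genes, 275 of them annotated; members, lists and motifs were chosen with earlier results of these data known. Genes named by rule were the 15 with the most members, the 10 strongest members, the acinar genes with a member and up to 4 per other list; motifs were the 6 highest and 6 lowest ratios. Other motifs, the Cish, Cebpa and Cacna1a sequences and the promoter examples were chosen after values were seen. Python 3.11.15, pandas 2.3.3, pysam 0.24.0 and bedtools 2.31.1 were used, and the scripts were tested on simulated data.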

Additional observations from a re-analysis of the deposited data

How the results depend on the processing

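The number of replicate-1-only peaks was 23959 from the longer replicate 1 list and 3439 from the stronger 50% of the shorter list, and stayed within 1.5 times of 12227 under the other alternatives run with both libraries. The share with a footprint was 75.8% with a promoter limit of 500 bp, 78.6% with replicate 2 peaks extended by 200 bp, 78.3% against the shorter replicate 2 list, 59.3% from the longer replicate 1 list and 96.6% in the stronger 50%. The share in groups was 56.5% with a limit of 2500 bp, 58.9% when 50% of a peak had to be covered, 62.2% from the longer list, 48.1% in the stronger 50%, 59.2% when protein-coding genes alone counted as genic, 48.9% and 65.1% when chained at 5 kb and 25 kb, and 56.6% with overlapping peaks merged, an alternative added after seeing the data. Without replicate 2 the 21686 intergenic peaks had a footprint in 84.8% and lay in groups in 63.9%; without replicate 1 there is no value. The causes were not tested. The acinar secretory genes nearest to a member numbered 21 to 27 and the regulators 8 to 12 under all alternatives. Over all lists 38 of 221 gene counts moved by over 1.5 times. With both libraries the islet genes with a member numbered 2 to 13, T lineage factor genes 2 to 11, endothelial genes 4 to 9, T cell receptor and coreceptor genes 1 to 6, thymocyte development genes 0 to 8 and thymic epithelium genes 3 to 8. Motifs wholly above replicate-2-only peaks numbered 11 to 20 of 35, and 6 to 8 lay wholly below. All 118 log2 ratios of named motifs under alternatives kept their sign, but not their size: in the stronger 50% CTCF moved to 0.23 (main 2.07) and CRE to -1.94 (main -0.95), and the longer ETS letters moved to -1.83 from the longer lists and -3.27 in windows of 100 bp (main -2.50). No paired analysis was possible because the 2 libraries form 1 group. Unknown depth limits how far an absent peak can be read.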

Other observations

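Lists of other tissues had values of their own, set here against 22.8% of all protein-coding genes with a replicate-1-only peak and 8.35 such peaks per Mb. Thymic epithelium genes had 19 replicate-1-only peaks at 7 of 15 genes (46.7%; 19.9 per Mb), 10 of them nearest to the chemokine gene Cxcl12, against 3 replicate-2-only peaks at 2 genes. Skeletal muscle genes had 7 replicate-1-only peaks, all nearest to Mb, the myoglobin gene. Liver genes had 6 at 3 of 11 genes (27.3%; 4.50 per Mb), and B cell genes had 3 in each library's set. Endothelial genes had 19 at 8 of 12 genes (66.7%; 16.7 per Mb), against 12 replicate-2-only peaks at 6. Intestine and stomach genes had 14 replicate-1-only peaks at 7 of 14 genes (5.89 per Mb) and 0 replicate-2-only peaks. Fibroblast and mural cell genes had 16 at 5 of 12 genes (41.7%; 10.7 per Mb). Neuron genes had 10 at 5 of 12 genes (41.7%; 6.46 per Mb). Myeloid and dendritic cell genes had 7 at 3 of 14 genes (21.4%; 13.0 per Mb).

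Of the replicate-1-only peaks 53.1% (52.2 to 54.0%) lay upstream of the nearest gene. On chromosome X lay 400 of them (3.27%; 2.97 to 3.60%), against 282 of the shared peaks (2.98%; 2.66 to 3.34%). Repeat-masked bases made up a mean of 12.9% of replicate-1-only windows, 16.6% of replicate-2-only windows and 29.0% of the flanks. A shared intergenic peak lay within the distance used to chain peaks of 3779 replicate-1-only peaks (30.9%).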
